A study of Mus musculus with 16 samples.

Results

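The genes described here are 9 components and regulators of complement, the blood-borne cascade of proteases and opsonins that tags cells for removal. They are C1s1, C1ra, C4b, C2, Cfb, C3, Serping1, Cd55 and Cd59a, which are 9 of the 49139 genes with a symbol in the count tables. They were found by symbol, and the list was chosen on measured differences between GFP and mCherry cells of the same tumours. The levels and differences of these genes in those comparisons are therefore a description, with no p-value. The chains of C1q, which macrophages make, were kept out of the list.

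RNA was sequenced from sorted cells of the 4T07 mouse mammary carcinoma line, carrying either GFP or mCherry. In the mixed tumours, 250000 cells of the 2 colours at equal parts were grown in the mammary fat pad of female C57BL/6J x Balb/cJ crosses, and PD1KO Jedi T cells, which recognise GFP and lack PD-1, were given by tail vein 7 or 15 days into tumour growth. Tumours were taken 7 days later. There were 3 libraries of GFP cells that survived and 3 of mCherry cells after injection on day 7, and 3 of each after injection on day 15. The 4 controls were mCherry cells of tumours with neither GFP cells nor Jedi T cells. For the controls, the number of cells injected and the time of harvest are not given here. The labels give a separate tumour for each pair of libraries and for each control, no age, and a strain entry whose generation number differs from library to library and was not used. No group held GFP cells without Jedi T cells, so the reporter and the T cell attack cannot be told apart. All day 7 libraries came from run 1 and all others from run 2, so day and run cannot be told apart. Tumour and control numbers below are those of the count columns. Libraries held 9412040 to 32808354 counts.

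Complement can be started through C1, in which the proteases C1r (C1ra) and C1s (C1s1) sit on C1q, and C1s cuts C4 (C4b) and C2. Their fragments form an enzyme that splits C3, the protein on which all routes converge. Factor B (Cfb) takes the place of C2 in the alternative route, which amplifies C3 splitting. C1 inhibitor (Serping1) blocks C1r and C1s, CD55 takes apart the enzymes that split C3, and CD59 (Cd59a) blocks the pore formed at the end of the cascade. The liver supplies most of these proteins to plasma, while stromal and tumour cells can make C1r, C1s, C4, factor B and C3 locally.

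In GRCm38, the assembly also called mm10, several of these genes lie side by side. C1ra lies at chr6:124512405-124523443 on the plus strand, and C1s1 at chr6:124530345-124542359 on the minus strand. C4b (chr17:34728380-34743882), Cfb (chr17:34856374-34862518) and C2 (chr17:34862604-34898265) share the minus strand of chromosome 17, with 86 bases between the ends of Cfb and C2. C3 lies farther along the same chromosome, at chr17:57203970-57228136 on the minus strand. Serping1 lies at chr2:84765387-84775444 on the minus strand, Cd55 at chr1:130439027-130462744 on the minus strand and Cd59a at chr2:104095801-104115354 on the plus strand.

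RefSeq promoter sequences (GRCm38.p6) were matched for 5 of the 9 genes, and the 250 bases before the start site were searched on both strands for GAAANNGAA (the core of the interferon-stimulated response element), TTCNNNGAA (the gamma-activated site) and TTGCNNAA (a C/EBP motif). Of 32851 promoter windows of the same length, 7.13% held the first, 7.02% the second and 9.56% the third. The 3 windows that held a match are printed 5′ to 3′ on the strand of the gene, with the match in capitals. They set a gene whose RNA was higher in GFP cells in every tumour (C1s1) beside a gene that was not (C3) and a gene near the limit of detection (Cd59a).
C1s1, chr6:124542360-124542609, minus strand: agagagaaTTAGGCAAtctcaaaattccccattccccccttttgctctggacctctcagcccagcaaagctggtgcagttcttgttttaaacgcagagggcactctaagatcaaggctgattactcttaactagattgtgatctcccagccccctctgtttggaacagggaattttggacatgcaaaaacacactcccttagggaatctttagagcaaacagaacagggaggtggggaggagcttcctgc
C3, chr17:57228137-57228386, minus strand: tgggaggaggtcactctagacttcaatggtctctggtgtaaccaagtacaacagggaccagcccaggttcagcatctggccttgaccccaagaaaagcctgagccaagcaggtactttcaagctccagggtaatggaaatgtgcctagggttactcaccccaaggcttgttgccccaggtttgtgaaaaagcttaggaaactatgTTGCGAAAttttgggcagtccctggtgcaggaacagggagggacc
Cd59a, chr2:104095551-104095800, plus strand: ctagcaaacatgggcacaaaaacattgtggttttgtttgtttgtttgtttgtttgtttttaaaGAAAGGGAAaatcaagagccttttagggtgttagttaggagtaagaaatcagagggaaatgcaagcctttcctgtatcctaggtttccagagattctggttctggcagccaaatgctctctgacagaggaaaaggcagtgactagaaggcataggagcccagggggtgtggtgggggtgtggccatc
In C1s1 the match was to the C/EBP motif on the other strand, at bases -242 to -235 before the start site. In C3 it was to the C/EBP motif at -45 to -38, and in Cd59a to the core of the interferon-stimulated element at -187 to -179. The windows of C1ra, of Cd55 and of the other listed start of C1s1 held none of these letters. The window of C1ra is counted from the RefSeq start, and most of it lies inside the span of C1ra given above. A match is a description of the letters and not of binding.

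Within mixed tumours, surviving GFP cells held more RNA of the early components than mCherry cells of the same tumour. C1s1, C1ra, C4b, C2 and Cfb were higher in GFP cells in 6 of 6 tumours, by a factor of 1.51 to 17.1. The upper end is C2 in tumour 2 of day 7, a gene with 6 to 9 counts in the mCherry libraries of that day. The other genes named reached a factor of at most 4.98. C3, Serping1, Cd55 and Cd59a had no common direction over the 6 tumours. Levels are CPM, the counts scaled to the size of the library and by TMM, which sets libraries to a common level, and fold changes come from edgeR with tumour as a block. In bulk libraries, a larger share of cells with an RNA and more of it per cell cannot be told apart.

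**Figure D1:**
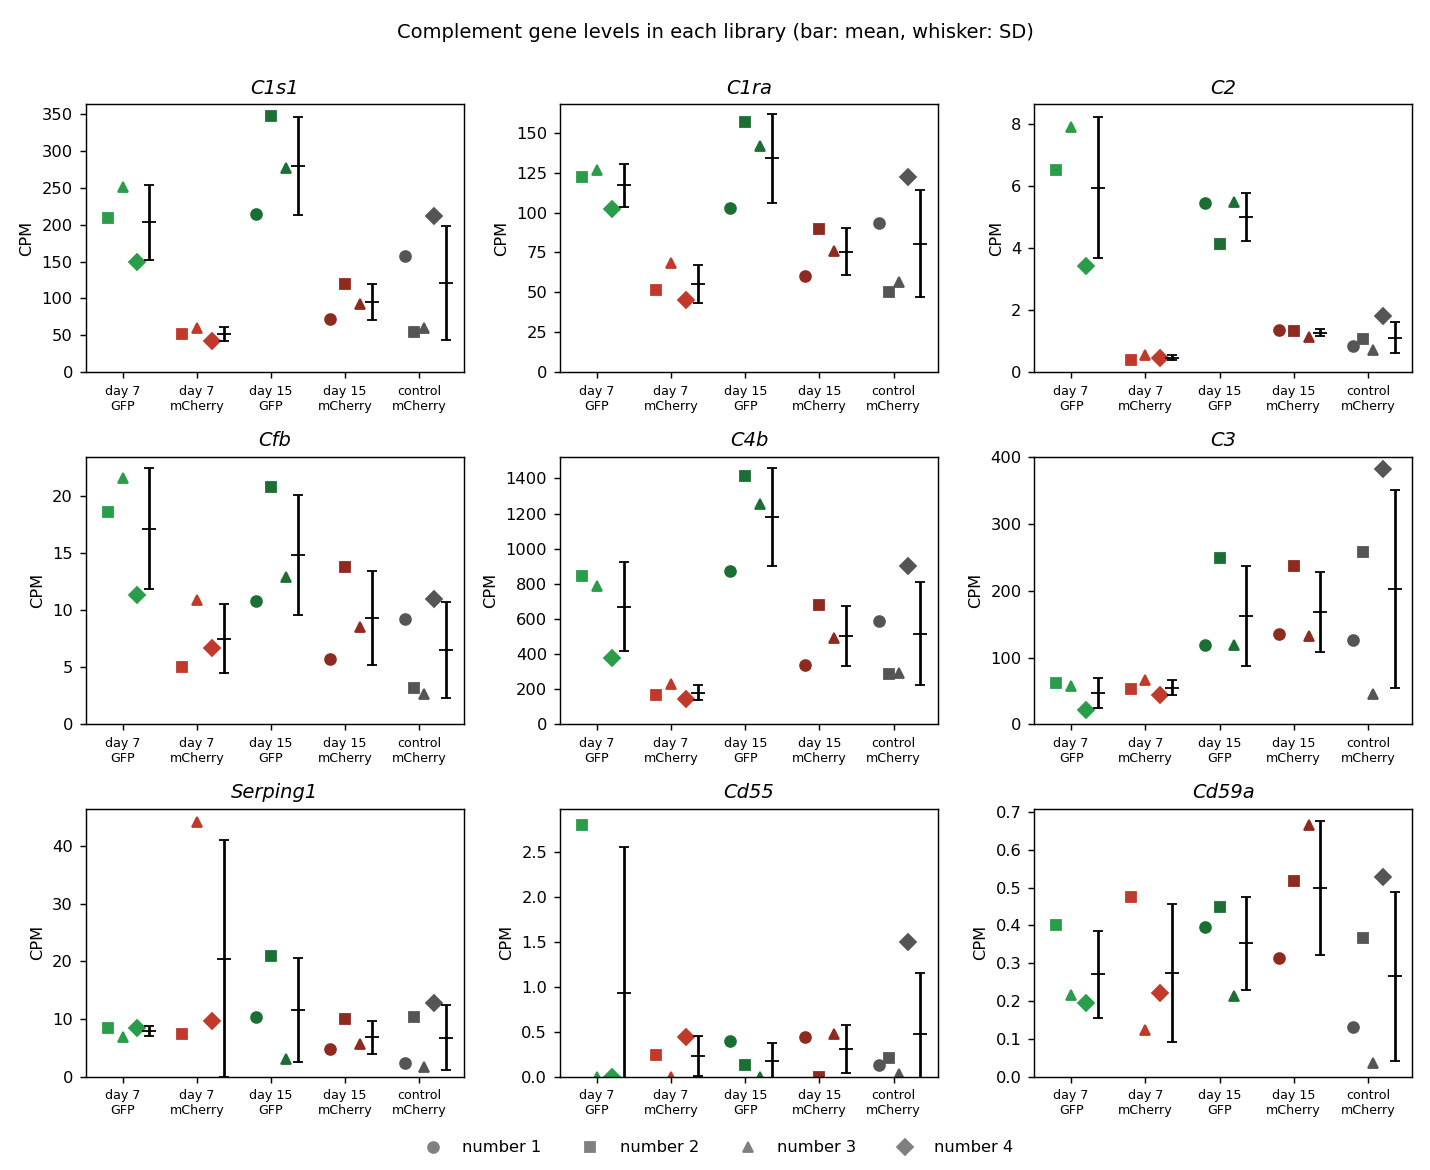
Level of each of the 9 genes in each of the 16 libraries, in TMM-scaled CPM on a linear axis that starts at 0 and differs between panels. Symbols give the number of the tumour or control, and the bar and whisker beside them give the mean and SD of 3 libraries (4 controls), cut at 0. GFP libraries stand above mCherry libraries of the same day for C1s1, C1ra, C2 and C4b with no overlap, while C3 overlaps on both days and the controls spread widely.

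C1s1 encodes the protease C1s, which cuts C4 and C2. On day 7 it stood at 209, 251 and 150 CPM in GFP cells of tumours 2, 3 and 4, against 52, 60.2 and 41.9 CPM in mCherry cells of the same tumours. On day 15 it stood at 215, 348 and 277 CPM in GFP cells of tumours 1, 2 and 3, against 72.1, 120 and 92.3 CPM in mCherry cells. The lowest GFP library of each day lay above the highest mCherry library of that day. The log2 fold change was 1.97 (SE 0.11, 3.91-fold) on day 7 and 1.55 (SE 0.08, 2.94-fold) on day 15. Between tumours of a day the difference varied little, from 1.84 to 2.06 on the log2 scale on day 7 and from 1.53 to 1.58 on day 15. In controls, C1s1 stood at 158, 54.8, 59.4 and 212 CPM, so that controls 1 and 4 lay above every mCherry library of mixed tumours and controls 2 and 3 among them. By mean level the order was day 15 GFP (280 ± 66.4 CPM), day 7 GFP (203 ± 50.9), controls (121 ± 77.1), day 15 mCherry (95 ± 24.3) and day 7 mCherry (51.4 ± 9.18; SD, n = 3, 4 for controls). Each neighbour in that order overlapped with the next except day 15 mCherry with day 7 mCherry, which come from different runs.

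C1ra encodes C1r, the protease that activates C1s. C1ra stood at 122, 127 and 102 CPM in GFP cells on day 7, against 51.7, 68.1 and 45 CPM in mCherry cells of the same tumours. At the later injection it stood at 103, 157 and 142 CPM in GFP cells, against 60.5, 89.7 and 76.1 CPM in mCherry cells. The colours did not overlap on either day, and the log2 fold change was 1.10 (SE 0.11) on day 7 and 0.82 (SE 0.08) on day 15, smaller than that of C1s1 on both days. The difference ranged from 0.90 to 1.23 over the day 7 tumours and from 0.77 to 0.90 over the day 15 tumours. Controls 1 to 4 held 93.2, 50.3, 56.6 and 122 CPM of C1ra, again high in 1 and 4. The order of means was day 15 GFP (134 ± 27.6 CPM), day 7 GFP (117 ± 13), controls (80.6 ± 33.6), day 15 mCherry (75.4 ± 14.6) and day 7 mCherry (55 ± 11.9), and every neighbour overlapped with the next.

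The counts of C1s1 over those of C1ra gave 1.46 to 1.98 in GFP cells and 0.883 to 1.01 in mCherry cells on day 7. On day 15 the ratio was 1.95 to 2.21 in GFP cells and 1.19 to 1.34 in mCherry cells, while controls ranged from 1.05 to 1.73. The ratio therefore lay higher in every GFP library than in any mCherry library of its day. This restates the larger difference of C1s1 between colours, on which the list was chosen. It is a ratio of CPM, not corrected for gene length, so it compares libraries and not the amounts of the 2 RNAs.

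C4b encodes C4, whose cleaved form binds covalently to cell surfaces, and it had the highest level per length of the 9 genes. Its mean was 207 CPM per kilobase of exon in day 15 GFP cells, against 89.4 for C1s1, 45 for C1ra, 31.6 for C3, 5.26 for Cfb, 4.95 for Serping1, 1.29 for C2, 0.194 for Cd59a and 0.0364 for Cd55. On day 7 C4b stood at 843, 785 and 379 CPM in GFP cells, against 169, 230 and 144 CPM in mCherry cells. After injection on day 15, C4b stood at 872, 1413 and 1253 CPM in GFP cells, against 336, 677 and 489 CPM in mCherry cells. The colours did not overlap on either day, although the GFP library of tumour 4 lay well under the other day 7 GFP libraries. C4b had a log2 fold change of 1.83 (SE 0.17) on day 7 and of 1.26 (SE 0.10) on day 15, and the tumours ranged from 1.40 to 2.31 on day 7 and from 1.06 to 1.38 on day 15. Controls 1 to 4 held 587, 287, 292 and 902 CPM of C4b, the same order of libraries as for C1s1. By mean the order was day 15 GFP (1180 ± 278 CPM), day 7 GFP (669 ± 253), controls (517 ± 292), day 15 mCherry (500 ± 171) and day 7 mCherry (181 ± 44.4), where day 15 GFP and day 7 GFP did not overlap, nor did day 15 mCherry and day 7 mCherry, which are in different runs.

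C2 encodes the second component, which C1s cuts to complete the enzyme that splits C3, and it had the largest fold change of the 7 genes tested within tumours, at a low level. The GFP cells of day 7 held 6.53, 7.89 and 3.43 CPM of C2, against 0.381, 0.551 and 0.445 CPM in mCherry cells. The mCherry values rest on 8, 9 and 6 counts, against 65, 110 and 53 counts in GFP cells, so C2 passed the filter of 10 counts on day 7 through its GFP libraries alone. The GFP cells of day 15 held 5.45, 4.12 and 5.47 CPM, against 1.34, 1.32 and 1.14 CPM in mCherry cells. The log2 fold change was 3.68 (SE 0.35, 12.8-fold) on day 7 and 1.96 (SE 0.25, 3.90-fold) on day 15, with ranges over tumours of 2.71 to 3.80 and 1.58 to 2.17. Controls 1 to 4 held 0.824, 1.07, 0.697 and 1.82 CPM of C2, and all 4 lay below every GFP library. The order of means was day 7 GFP (5.95 ± 2.28 CPM), day 15 GFP (5.01 ± 0.771), day 15 mCherry (1.27 ± 0.11), controls (1.10 ± 0.505) and day 7 mCherry (0.459 ± 0.0861). The first of these neighbours overlapped with the second, as did day 15 mCherry with the controls.

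Cfb encodes factor B, the counterpart of C2 in the alternative route. Cfb stood at 18.6, 21.6 and 11.3 CPM in GFP cells of day 7, against 5, 10.9 and 6.67 CPM in mCherry cells. Its day 15 levels were 10.8, 20.8 and 12.9 CPM in GFP cells, against 5.73, 13.8 and 8.51 CPM in mCherry cells. On day 7 the lowest GFP library was just above the highest mCherry library, and on day 15 the mCherry library of tumour 2 lay above GFP libraries 1 and 3, so the colours overlapped there although each tumour had more Cfb in its GFP cells. For Cfb the log2 fold change was 1.21 (SE 0.24) on day 7 and 0.69 (SE 0.14) on day 15. Tumour 2 of day 7 had a difference of 1.87, against 0.98 and 0.75 in tumours 3 and 4. On day 15 Cfb did not pass the test without the tumour block, where its log2 fold change was 0.66. Controls 1 to 4 held 9.26, 3.20, 2.68 and 11 CPM of Cfb. The order of means was day 7 GFP (17.1 ± 5.31 CPM), day 15 GFP (14.9 ± 5.28), day 15 mCherry (9.34 ± 4.10), day 7 mCherry (7.52 ± 3.04) and controls (6.54 ± 4.23), and every neighbour overlapped with the next.

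**Figure D2:**
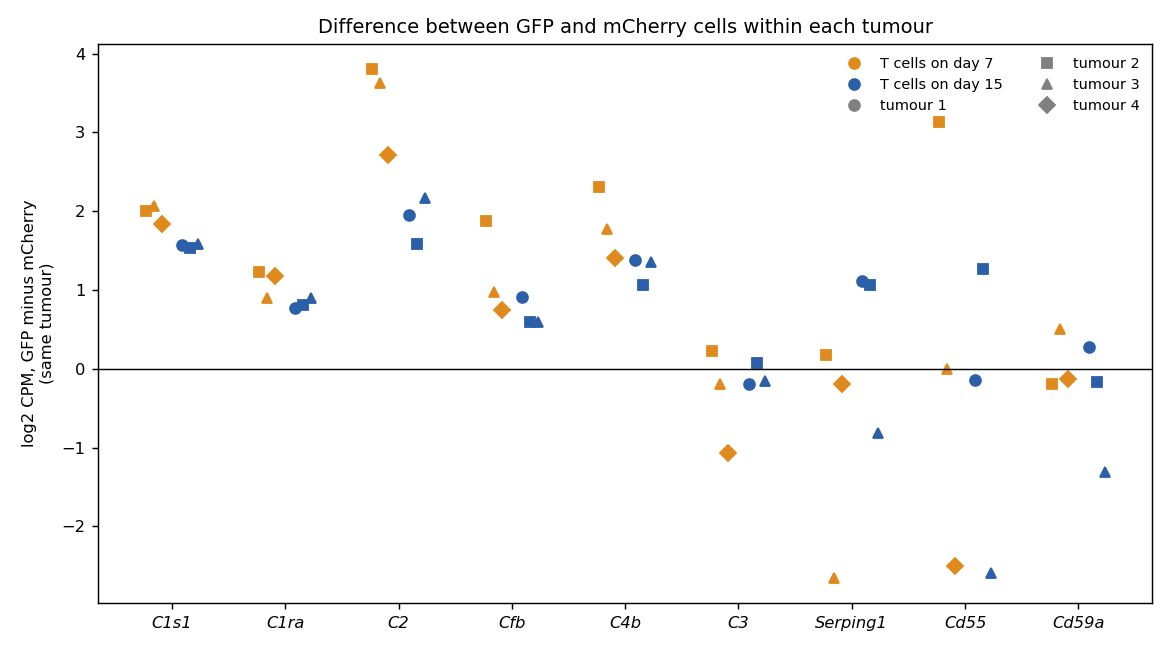
Difference in log2 CPM between GFP and mCherry cells of the same tumour for each of the 9 genes, with 3 tumours per injection day, colours for the day and symbols for the tumour number. All 6 points lie above 0 for C1s1, C1ra, C2, Cfb and C4b, and points lie on both sides of 0 for C3, Serping1, Cd55 and Cd59a.

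C3 encodes the component that all routes split. In GFP cells of day 7 it stood at 62.4, 57.6 and 21.2 CPM, against 53.2, 66.4 and 44.6 CPM in mCherry cells. In GFP cells of day 15 it stood at 119, 249 and 119 CPM, against 136, 237 and 132 CPM in mCherry cells. The colours overlapped on both days, and C3 followed the tumour more than the colour on day 15, with tumour 2 high in both. Its log2 fold change was -0.33 (SE 0.21) on day 7 and -0.10 (SE 0.08) on day 15, and C3 was higher in GFP cells in 2 of 6 tumours. The day 7 value depended on single tumours: it was 0.03 without tumour 4, and without tumour 2 it was -0.63 and was called lower. Controls 1 to 4 held 127, 258, 44.9 and 383 CPM of C3, the widest range of any group for this gene. The order of means was controls (203 ± 149 CPM), day 15 mCherry (168 ± 59.6), day 15 GFP (162 ± 75.3), day 7 mCherry (54.7 ± 11) and day 7 GFP (47 ± 22.5), and only day 15 GFP and day 7 mCherry did not overlap, which are in different runs.

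The counts of C4b over those of C3 gave 13.5 to 17.9 in GFP cells and 3.18 to 3.47 in mCherry cells on day 7, and 5.67 to 10.6 in GFP cells and 2.47 to 3.72 in mCherry cells on day 15. Controls ranged from 1.11 to 6.51. The counts of C2 over those of Cfb gave 0.305 to 0.365 in GFP cells and 0.0506 to 0.0762 in mCherry cells on day 7, but on day 15 the ranges of 0.198 to 0.502 in GFP cells and 0.0956 to 0.234 in mCherry cells overlapped. The ratio of C4b to C3 thus lay higher in every GFP library than in any mCherry library of its day. These ratios restate the differences of single genes given above, on which the list was chosen, and are not a further result.

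Serping1 encodes C1 inhibitor, the serpin that inactivates C1r and C1s. On day 7 it stood at 8.43, 6.96 and 8.48 CPM in GFP cells, against 7.47, 44.2 and 9.71 CPM in mCherry cells, where the mCherry library of tumour 3 stood far above the other 5. Serping1 levels on day 15 were 10.4, 21 and 3.14 CPM in GFP cells, against 4.79, 10 and 5.61 CPM in mCherry cells. Serping1 was higher in GFP cells in 3 of 6 tumours, and the colours overlapped on both days. The log2 fold change was -0.93 (SE 0.45) on day 7 and 0.53 (SE 0.32) on day 15, and single tumours decided both. On day 7 it was -0.02 without tumour 3, and it was called lower without tumour 2 (-1.48) or without tumour 4 (-1.40). On day 15 it was called higher without tumour 3 (1.09), and it was 0.25 and 0.20 without tumours 1 and 2. Controls 1 to 4 held 2.44, 10.4, 1.60 and 12.7 CPM of Serping1. By mean the order was day 7 mCherry (20.5 ± 20.6 CPM), day 15 GFP (11.5 ± 8.96), day 7 GFP (7.96 ± 0.867), day 15 mCherry (6.81 ± 2.82) and controls (6.77 ± 5.57), all overlapping with their neighbours. The counts of C1s1 over those of Serping1 ranged from 17.7 to 36.1 in GFP cells and from 1.36 to 6.97 in mCherry cells on day 7, and from 16.6 to 88.3 in GFP cells and from 12 to 16.5 in mCherry cells on day 15. This ratio, too, restates differences on which the list was chosen.

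Cd55 encodes CD55, also called decay-accelerating factor, a membrane-anchored regulator of the enzymes that split C3. It was near the limit of detection. It had 28, 0 and 0 counts in GFP cells against 5, 0 and 6 counts in mCherry cells on day 7, and 8, 3 and 0 counts in GFP cells against 10, 0 and 10 counts in mCherry cells on day 15. The 28 counts of tumour 2 correspond to 2.81 CPM. A count of 0 (up to 3 counts, counting error only) allows up to 0.224 and 0.206 CPM in GFP cells of tumours 3 and 4, here without TMM scaling. The controls had 4, 7, 1 and 37 counts of Cd55, and control 4 reached 1.5 CPM. By mean the order was day 7 GFP (0.937 ± 1.62 CPM), controls (0.470 ± 0.691), day 15 mCherry (0.308 ± 0.267), day 7 mCherry (0.227 ± 0.222) and day 15 GFP (0.177 ± 0.201), all overlapping.

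Cd59a encodes CD59, which keeps the terminal pore from forming. It had 4, 3 and 3 counts in GFP cells against 10, 2 and 3 counts in mCherry cells on day 7, and 8, 10 and 5 counts in GFP cells against 7, 11 and 14 counts in mCherry cells on day 15. The controls had 4, 12, 1 and 13 counts. The highest level of Cd59a in any library was 0.665 CPM, and all groups overlapped. Group means ran from 0.499 ± 0.177 CPM in day 15 mCherry cells, through 0.352 ± 0.124 in day 15 GFP, 0.273 ± 0.182 in day 7 mCherry and 0.270 ± 0.114 in day 7 GFP, to 0.265 ± 0.223 in controls. Neither Cd55 nor Cd59a passed the filter on low counts in the within-tumour comparisons, so a difference between colours was not tested for either at this depth.

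Of the 9 genes, 7 passed the filter on low counts in each within-tumour comparison. On day 7, 5 of the 7 were called higher in GFP cells at an adjusted p under 0.05 and 0 lower, while 8.89% of all 14578 genes tested were called higher and 9.33% lower. On day 15, 5 of 7 were called higher and 0 lower, beside 8.94% and 10.6% of 14260 genes. The GFP libraries lay wholly above the mCherry libraries for 5 genes on day 7, beside 17.3% of all genes tested, and for 4 on day 15, beside 17.9%. The median log2 fold change of the 7 genes was 1.21 on day 7 and 0.82 on day 15, against 0 and 0.01 over all genes tested. Since the list was chosen on these comparisons, nothing is read from those shares or medians. The day 7 values include C2, which passed the filter through its GFP libraries alone.

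**Figure D3:**
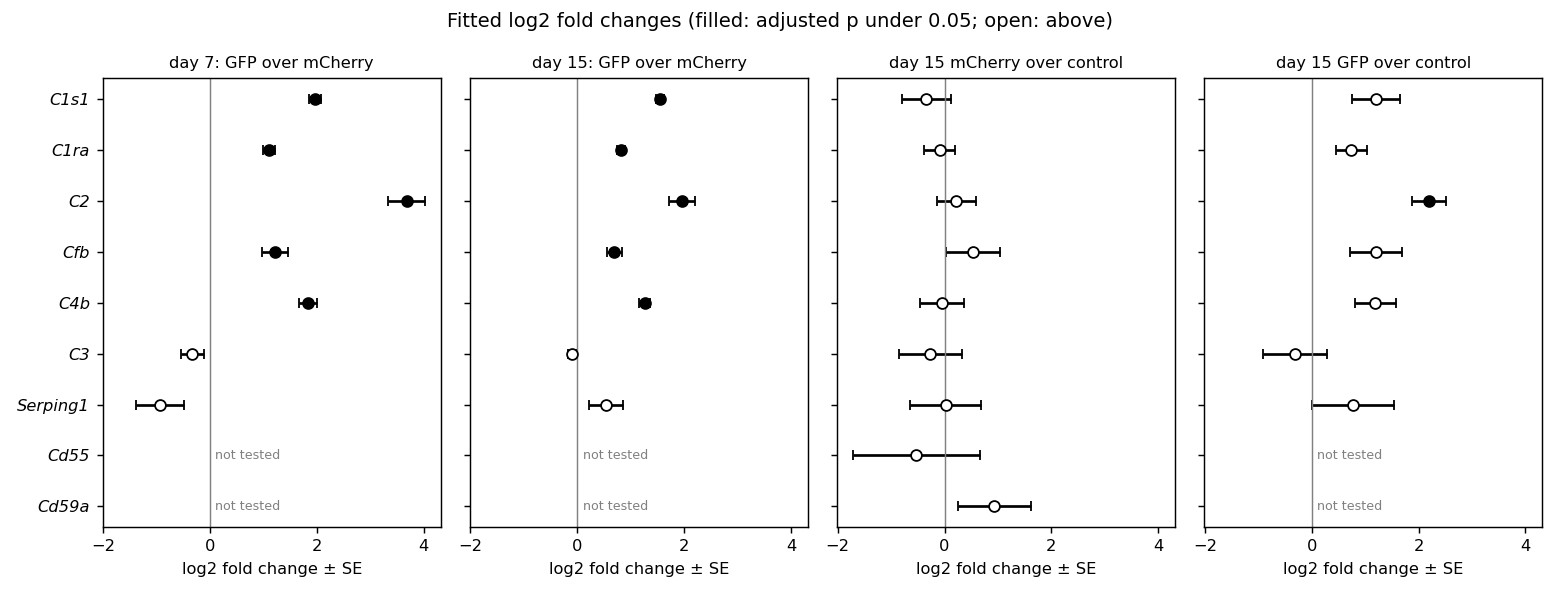
Log2 fold change with its SE from edgeR for each of the 9 genes in 4 comparisons, named above each panel with the group on top of the ratio first. Filled points have an adjusted p under 0.05 over all genes tested, and genes under the filter on low counts are marked as not tested. C1s1, C1ra, C2, Cfb and C4b are filled in both within-tumour panels, no gene is filled for day 15 mCherry cells over controls, and C2 is filled for day 15 GFP cells over controls.

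The difference between GFP and mCherry cells was compared between injection days in a fit of the 12 libraries of mixed tumours. The log2 difference on day 15 minus that on day 7 was -1.72 for C2 (SE 0.44, adjusted p = 0.159 by edgeR), -0.57 for C4b (SE 0.21, adjusted p = 0.369) and -0.41 for C1s1 (SE 0.13, adjusted p = 0.275). It was -0.52 for Cfb (SE 0.28, adjusted p = 0.567) and -0.28 for C1ra (SE 0.14, adjusted p = 0.512). All 5 genes had a smaller difference on day 15, with none past the threshold. It was 0.23 for C3 (SE 0.25, adjusted p = 0.799), 1.47 for Serping1 (SE 0.66, adjusted p = 0.470) and -0.54 for Cd59a (SE 0.90, adjusted p = 0.895). With edgeR 0 of 8 genes were called, beside 0.211% of 16626 genes tested, 4 had an unadjusted p under 0.05, and DESeq2 also called 0. With no filter on low counts 3 of the 9 genes were called, which were C2 (-1.72), C4b (-0.56) and Serping1 (1.49). That setting also called more genes over the whole table, so nothing is read from these calls. This comparison uses the libraries on which the list was chosen and is not independent of that choice.

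The day 15 mCherry cells had the T cell attack around them but no GFP, and the controls had neither. Whether the controls matched the day 15 tumours in cells injected and in age at harvest is not known here. Such differences cannot be told apart from the attack in either comparison with controls. Between them, none of the 9 genes was called. The log2 fold change of day 15 mCherry cells over controls was -0.34 for C1s1 (SE 0.46, adjusted p = 0.754 by edgeR), -0.09 for C1ra (SE 0.29, adjusted p = 0.917), -0.04 for C4b (SE 0.41, adjusted p = 0.975) and 0.22 for C2 (SE 0.36, adjusted p = 0.803). It was 0.53 for Cfb (SE 0.51, adjusted p = 0.648), -0.27 for C3 (SE 0.59, adjusted p = 0.860), 0.02 for Serping1 (SE 0.66, adjusted p = 0.995), -0.53 for Cd55 (SE 1.19, adjusted p = 0.862) and 0.93 for Cd59a (SE 0.68, adjusted p = 0.542). The mCherry libraries lay inside the range of the 4 controls for C1s1, C1ra, C4b, C2, C3 and Serping1. EdgeR called 0 of the 9 genes and 0.0% of the 14800 genes tested, where 2104 had an unadjusted p under 0.05 but none of the 9 did. DESeq2 called 262 genes, of which 0 were among the 9. These errors come from a fit of both groups, in which the controls spread widely and the counts of Cd55 and Cd59a were low. For several genes the sign changed when control 4 or another library was left out.

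Against the same controls, C2 was called higher in day 15 GFP cells, with a log2 fold change of 2.20 (SE 0.32, 4.59-fold, adjusted p = 0.00998 by edgeR). All 3 GFP libraries lay above all 4 controls. C1s1 (1.21, SE 0.45, adjusted p = 0.0996), C4b (1.19, SE 0.38, adjusted p = 0.0699), Cfb (1.20, SE 0.48, adjusted p = 0.121) and C1ra (0.74, SE 0.29, adjusted p = 0.118) had positive values that did not pass. C3 (-0.32, SE 0.60, adjusted p = 0.747) and Serping1 (0.77, SE 0.76, adjusted p = 0.514) did not pass either. In all, 1 of 7 genes tested was called higher and 0 lower, beside 6.09% and 6.97% of 14801 genes. For C1s1 and C2 the groups did not overlap, beside 14.1% of all genes with GFP wholly higher. Control 4 weighed on this result, since without it 4 of the 7 were called higher, C2 with C1s1 (1.63), C1ra (1.02) and C4b (1.61). The number of all genes called also moved as single libraries were left out, so nothing is read from these added calls. The values over controls share the day 15 GFP libraries with the within-tumour comparison, on which the list was chosen. Their p-values, that of C2 included, are therefore not independent of that choice. Both comparisons with controls share the controls, and each uses day 15 libraries on which the list was chosen.

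Some of these RNAs resemble those of neighbouring genes. Of the 50-base words of the C1ra transcripts, 48% also occur in C1rb, of those of C1s1 21.8% in C1s2, and of those of C4b 34.6% in C4a, so counts may be split between copies. Of the counts of a pair, C1rb held 7.88% to 10.7% in run 1 and 2.66% to 3.45% in run 2, C1s2 6.82% to 8.60% and 2.90% to 4.81%, and C4a 2.01% to 3.82% and 3.21% to 4.24%. The copies differed between colours in the same direction as the genes, though C1rb was not called on day 15. C1s2 rose by 1.90 on the log2 scale in GFP cells on day 7 (SE 0.20, adjusted p = 0.000251 by edgeR) and by 1.76 on day 15 (SE 0.18, adjusted p = 0.000198). C4a rose by 1.61 (SE 0.32, adjusted p = 0.00719) and by 1.17 (SE 0.11, adjusted p = 0.000164). C1rb rose by 1.15 on day 7 (SE 0.22, adjusted p = 0.00571), and its value of 0.64 on day 15 did not pass (SE 0.23, adjusted p = 0.0784 by edgeR). Since counts may be split between copies, these values are not independent of those of the listed genes. Summing each pair changed no call of the 9 genes, with C1s1 and C1s2 together at 1.96 and 1.56, C1ra and C1rb at 1.11 and 0.81, and C4b and C4a at 1.82 and 1.25 on days 7 and 15. C2 and Cfb share no such word. The annotated gene Gm20547 spans both and shares 1656 exon bases with C2 and 2246 with Cfb on the same strand, and it had 0 counts in the tables. Zbtb12, on the other strand, shares 161 exon bases with C2. The sources used here do not give whether the counting used strand. Cd55 shares 8% of its words with Cd55b, and Cd59a 3.87% with Cd59b.

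The genes whose pattern over the 16 libraries was nearest to each of these were found among 11593 genes by the mean absolute difference of centred log2 CPM profiles. Nearest to C1s1 were Gbp3 (0.194), Stat2 (0.211) and C4b (0.236), and nearest to C4b were Stat2 (0.166), Bst2 (0.216) and C1s1 (0.236). C1s1 and C4b were thus each among the 3 nearest genes of the other. Nearest to C1ra were Herc6 (0.131), Parp11 (0.142) and Sp110 (0.143), to Cfb were Ptgs2os2 (0.259), Ifi207 (0.285) and Irf7 (0.324), and to C2 were Gdpd2 (0.503), Cdsn (0.519) and Stat2 (0.531). Nearest to C3 were Limch1 (0.409), Mgat3 (0.427) and Fgf2 (0.444). Ordered by distance from C3, C1s1 stood at rank 6876 and C4b at rank 5781. The nearest gene was S1pr1 to Serping1 (0.567), Fstl1 to Cd55 (0.965) and Gm2423 to Cd59a (0.387), the last 2 near the limit of detection. The libraries share tumours and runs, and they include those on which the list was chosen. Nearness between listed genes is therefore partly built in, and these distances describe the 16 libraries and carry no test.

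The rest of the complement system was covered by a list of 41 other genes. On day 7, 18 of the 41 were tested, 5 were called higher in GFP cells and 5 lower, beside 8.89% and 9.33% of all genes tested, and the median log2 fold change was 0.25. On day 15, 17 were tested, 4 were called higher and 1 lower, beside 8.94% and 10.6% of all genes tested, and the median was 0.12. Those higher lay among the initiating proteases and C4, and included copies whose counts are not independent of the listed genes. Beside the copies named above, C1rl, a C1r-like protease, rose by 0.84 on day 7 (SE 0.21, adjusted p = 0.0233 by edgeR) and by 0.91 on day 15 (SE 0.12, adjusted p = 0.000972). Masp1, a protease of the lectin route, rose by 0.45 (SE 0.12, adjusted p = 0.0278) and by 0.34 (SE 0.09, adjusted p = 0.0307). On day 15 the C1rb value did not pass.

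**Figure D4:**
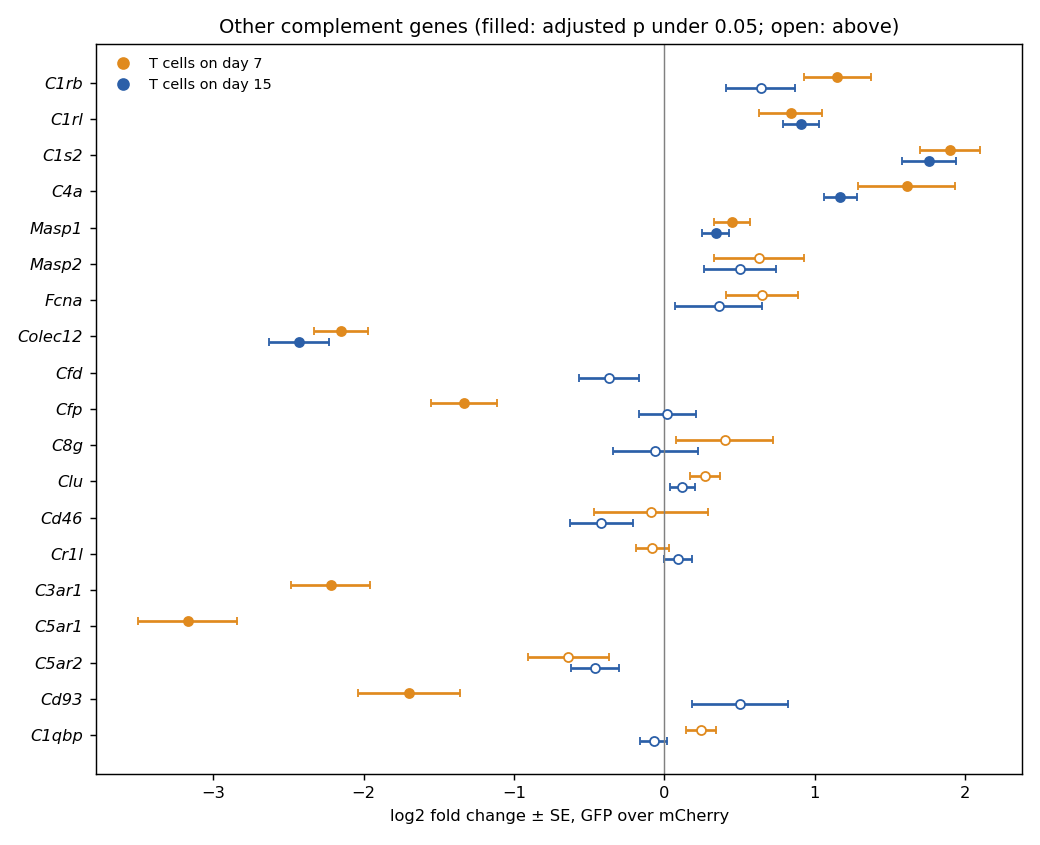
Log2 fold change with its SE of GFP over mCherry cells on day 7 and day 15 for the other complement genes that passed the filter on low counts on either day. Filled points have an adjusted p under 0.05 over all genes tested. C1s2, C4a, C1rl and Masp1 are filled above 0 on both days, and Colec12 is filled below 0 on both days.

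Colec12, a scavenger receptor of the collectin family, was lower in GFP cells on both days, with 5.62 ± 2.26 CPM in GFP cells, against 24.5 ± 5.76 CPM in mCherry cells on day 7 and 6.60 ± 2.86 CPM in GFP cells, against 34.5 ± 5.25 CPM in mCherry cells on day 15 (SD, n = 3 each). Its log2 fold change was -2.15 (SE 0.18, adjusted p = 5.05e-05 by edgeR) and -2.43 (SE 0.20, adjusted p = 6.97e-05). On day 7 the receptors C5ar1 (-3.17, adjusted p = 0.000189), C3ar1 (-2.22, adjusted p = 0.000412) and Cd93 (-1.70, adjusted p = 0.00795), and properdin (Cfp, -1.33, adjusted p = 0.00273), which steadies the alternative enzyme, were also lower by edgeR. None of these 4 was called on day 15, where C3ar1 and C5ar1 fell under the filter on low counts. On day 7, 15 of 15 macrophage markers and 7 of 7 endothelial markers tested were also called lower in GFP cells, beside 9.33% of all genes tested. The part of such cells in the values of these complement genes was not tested.

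Of the 5 other complement genes with the highest levels, Masp1 and C1rl are described above, and Clu, C1qbp and Cr1l were called on neither day. Clu, or clusterin, a chaperone that also binds the terminal complex, had 846 ± 46.9 CPM in GFP cells, against 703 ± 67.5 CPM in mCherry cells on day 7 and 608 ± 60.7 CPM in GFP cells, against 557 ± 85.5 CPM in mCherry cells on day 15. C1qbp, a mitochondrial protein first found as a binder of C1q, had 259 ± 20.8 CPM in GFP cells, against 219 ± 21.5 CPM in mCherry cells on day 7 and 102 ± 3.18 CPM in GFP cells, against 106 ± 8.06 CPM in mCherry cells on day 15. Cr1l, a rodent membrane regulator that acts on C3 and C4 fragments, had 50.2 ± 4.82 CPM in GFP cells, against 52.8 ± 3.04 CPM in mCherry cells on day 7 and 40.5 ± 2.19 CPM in GFP cells, against 37.8 ± 1.82 CPM in mCherry cells on day 15 (SD, n = 3 each). Of the 7 genes of the terminal pore, C8g alone was tested, and the 7 together summed to at most 4.08 CPM in any library.

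Against controls, 1 of the 19 other genes tested was called higher in day 15 GFP cells, C4a (1.15, SE 0.32, adjusted p = 0.0489 by edgeR), and 2 were lower, Colec12 (-1.99, SE 0.32, adjusted p = 0.0117) and C3ar1 (-2.39, SE 0.57, adjusted p = 0.0305), beside 6.09% higher and 6.97% lower over all genes. DESeq2 called 3 higher, which were C4a, C1rl and C1s2, and the same 2 lower. In day 15 mCherry cells over controls edgeR called 0 of 19, with 4 at an unadjusted p under 0.05, and DESeq2 also called 0. In the difference between days edgeR called 0 of 19, with 5 at an unadjusted p under 0.05, while DESeq2 called 3, which were C5ar1, Cd93 and Cfp. Cfd, the protease that cuts factor B and a product of adipocytes, had at most 0.184 CPM on day 7, and 14.2 to 29.2 CPM in GFP cells, against 22.1 to 27.7 CPM in mCherry cells on day 15. The summed level of 4 adipocyte markers was likewise at most 3.56 CPM on day 7, and 22.4 to 41.6 CPM in GFP cells, against 34.5 to 46.8 CPM in mCherry cells on day 15.

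Markers of other cell types moved in the within-tumour comparisons as well. The 15 macrophage markers, which include the C1q chains, summed to 104 to 173 CPM in GFP cells, against 616 to 873 CPM in mCherry cells on day 7, and to 60.9 to 82 CPM in GFP cells, against 100 to 127 CPM in mCherry cells on day 15. Of these, 15 of 15 were called lower in GFP cells on day 7, beside 9.33% of all genes tested. On day 15, 7 of 12 tested were called lower, beside 10.6% of all genes tested. C1qa fell by 3.05 on day 7 (adjusted p = 1.47e-05 by edgeR) and by 1.53 on day 15 (adjusted p = 0.00942), C1qb by 2.92 (adjusted p = 3.82e-06) and 1.84 (adjusted p = 0.0035), and C1qc by 2.96 (adjusted p = 1.01e-05) and 1.42 (adjusted p = 0.0102). The C1q chains thus ran opposite to C1s1, C1ra, C4b, C2 and Cfb on both days. Of the macrophage markers tested on day 15 but not called, Cd68 was higher in GFP cells in 3 of 3 tumours (0.67, SE 0.22, adjusted p = 0.0617) and Cx3cr1 had 0.15 (SE 0.47, adjusted p = 0.854). Endothelial markers (9 genes) summed to 4.92 to 5.95 CPM in GFP cells, against 25.9 to 47.5 CPM in mCherry cells on day 7, and to 8.32 to 12.5 CPM in GFP cells, against 9.93 to 32.5 CPM in mCherry cells on day 15.

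The 9 fibroblast markers summed to 740 to 797 CPM in GFP cells, against 678 to 819 CPM in mCherry cells on day 7, where the colours overlapped. On that day 1 of 5 tested was called lower, beside 9.33% of all genes tested. On day 15 the fibroblast markers summed to 1390 to 1626 CPM in GFP cells, against 934 to 1136 CPM in mCherry cells. Dcn was called higher (1.25, adjusted p = 3.04e-05 by edgeR) and Lum, Pi16 and Col15a1 lower. Dcn and Pdgfra, with mean log2 CPM of 8.83 and 8.55, had the highest levels of the list. T and NK markers summed to at most 5.22 CPM in any library. Of the markers of 4T07 cells, Vim and Krt8 were abundant in all groups, with mean log2 CPM of 11.5 and 9.09, while Epcam averaged 1.00 to 1.64 CPM per group. Krt8 was lower in GFP cells on day 7 (-0.96, adjusted p = 0.00142 by edgeR) and on day 15 (-0.55, adjusted p = 0.00824), as was Krt18 (-1.72, adjusted p = 0.000241, and -0.98, adjusted p = 0.000719). The 5 neutrophil markers summed to 5.11 to 12.3 CPM in GFP cells, against 9.26 to 37.3 CPM in mCherry cells on day 7, and to 1.19 to 4.11 CPM in GFP cells, against 2.66 to 16.9 CPM in mCherry cells on day 15. S100a8 was lower in GFP cells on both days (-1.37, adjusted p = 0.00209 by edgeR, and -1.97, adjusted p = 0.00138), and S100a9 on day 15 (-1.59, adjusted p = 0.0261) but not on day 7 (0.52, adjusted p = 0.398). The part of these cell types in the levels of the 9 genes and of the other complement genes was not tested.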

How the data were processed

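Raw counts per gene of 16 bulk RNA libraries of sorted cells were deposited by the authors. Per the labels' protocols, a sequencing company made them, and the build was mm10, per the submitters' processing notes. The CD45 gate, aligner, counter and annotation were not given in the sources used here. Comparisons that the authors deposited were not used. The 176 unnamed rows of the 49315 held at most 0.011% of a library's counts and were left out.

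Genes were filtered with filterByExpr (minimum count 10, minimum total 15), scaled by TMM and tested by the quasi-likelihood method of edgeR 4.0.16 (R 4.3.3). P-values were adjusted over all genes tested (Benjamini-Hochberg, threshold 0.05). Tumour was a block within mixed tumours. Levels are CPM scaled over the 16 libraries, and differences within a tumour are in log2 CPM (prior count 2). An SE is the size of the log2 change divided by the square root of F. The procedure was tested on simulated data. The listed genes, the other complement genes and the marker lists were chosen with earlier results of these data known. A gene of the complement list is not reported here. The named genes were the 9 listed, every other complement gene past the threshold or among the 5 highest, near-identical copies and overlapping genes, the C1q chains and the 3 nearest genes in pattern.

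GFP and mCherry libraries of day 15 were paired by the labels' tumour, and those of day 7 by column number. Deviations of same-numbered libraries correlated by 0.126 to 0.192 on day 7 and 0.111 to 0.303 on day 15, against at most 0.0209 for other pairs. Deviations were taken from the mean of a colour on a day, so a positive value for a pair pushes other pairs below 0. The contrast is therefore partly built in. Day 7 and control columns were matched to the labels as groups only. Replicates differed beyond counting noise (chi-square per degree of freedom 5.34 to 92.1). Positions are from GENCODE M21. The alternatives tried were DESeq2 1.42.0 as the test, DESeq2's scaling within edgeR, other filters, no block, summed copies (added after seeing the data), a fit of all run 2 libraries and each tumour or library left out.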

Additional observations from a re-analysis of the deposited data

Results flagged for a closer look

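Among the 9 genes in the 4 controls, Cd55 in control 4 stood apart from the other 3 controls. Control 4 held 1.5 CPM (37 counts), against 0.132, 0.213 and 0.0348 CPM (4, 7 and 1 counts) in controls 1, 2 and 3. The gap between control 4 and the next control was 0.878 of the whole range. That is above the value that a group of 4 normally distributed values exceeds by chance in about 1 of 20 cases. All 9 genes were looked at in this way, and Cd55 was near the limit of detection, so that rate need not hold here. Cd55 was as uneven in day 7 GFP cells, from 0 to 28 counts. Nothing is read from the gap.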

How the results depend on the processing

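Of 421 results of the 9 genes under the settings tried, 391 kept their direction and their side of the threshold. For C1s1, C1ra, C2, C4b and Cfb within tumours, every setting kept the direction, and only Cfb on day 15 lost its call, with no replicate block (0.66). Without the block, 2159 genes were called on day 7, 2059 on day 15 and 2 in the difference between days, against 2656, 2782 and 35 with it, and 5, 4 and 0 of the 9 genes. C3 turned to 0.03 on day 7 and to -0.10 in the day difference without tumour 4 of day 7, and to 0.18 in GFP cells over controls without control 4. In mCherry cells over controls, leaving out control 4 gave 0.08 for C1s1, 0.19 for C1ra, 0.24 for C3 and 0.38 for C4b. Leaving out mCherry library 1 gave 0.04 for C1ra and 0.17 for C4b, and leaving out library 2 gave -0.37 for Serping1 and 0.04 for Cd55. Leaving out control 1 gave 0.01 for C4b and -0.28 for Serping1, leaving out control 3 gave -0.32 for Serping1, and a filter of 50 counts gave -0.00 for Serping1. With 1 tumour or library left out in turn, the lowest C3 value was -0.63 on day 7 and -0.76 in GFP cells over controls, and in mCherry cells over controls the far ends were -0.58 for C1s1, -0.26 for C1ra, -0.61 for C3, 0.50 for Serping1 and -0.97 for Cd55. Of these values only -0.63 was called, and the cause of each change was not tested.

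Counts of all genes called moved more. DESeq2 called 262 in mCherry cells over controls, 2953 in GFP cells over controls and 153 in the day difference, where no filter gave 354 and a filter of 50 counts 14. With no filter 3 of the 9 genes were called in GFP cells over controls (C2, C1s1 and C4b) and 3 in the day difference. Serping1 was also called with no filter on day 7 (-0.94) and on day 15 (0.54). Leaving out 1 tumour or library gave 1156 to 4558 calls on day 7, 1736 to 2546 on day 15, 0 to 7 in mCherry cells over controls, 287 to 2093 in GFP cells over controls (1 to 4 of the 9 genes) and 3 to 126 in the day difference. Depth limits Cd55 and Cd59a in all groups, and C2 in mCherry cells of day 7.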
